A study of Mus musculus with 3 samples.

Results

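Cst7-positive microglia were defined here as microglial barcodes that held at least 2 unique molecular identifiers (UMIs, each counted as 1 captured transcript) of Cst7. They made up 300 of the 14070 barcodes kept over all 3 libraries, and 300 of the 13312 that were microglia. A barcode was kept when it held more than 200 and fewer than 8000 genes and at most 10% mitochondrial UMIs. It was called a microglial barcode when P2ry12 and Tmem119 together made up at least 0.15% of its UMIs and the macrophage genes Mrc1, Pf4, Ms4a7 and F13a1 together had fewer than 5 UMIs. The members were thus chosen by their Cst7 UMIs, and the Cst7 values below are a description.

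The cells came from brains of 8-week-old mice on a C57BL/6J background and were sorted as CD11b+, CD45-low and Cx3cr1+, after perfusion with blockers of transcription. The Control library was labelled Wild type and came from male mice. The hCD33M library came from male mice that carry the long isoform of human CD33, an inhibitory sialic acid receptor of myeloid cells, and the hCD33m library from female mice that carry the short isoform, which lacks the ligand-binding domain. Both transgenes sit in the Rosa26 locus behind a stop cassette that Cx3cr1-Cre removes, so they are carried by the microglial lineage, and the hCD33m strain derives from 1 embryonic stem cell clone. Mice of a genotype were pooled into 1 library per genotype, so no difference between genotypes was tested, and sex and the short isoform cannot be told apart.

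Cst7 encodes cystatin F, an inhibitor of cysteine cathepsins that is held in endosomes and lysosomes and is best known for acting on cathepsin C, the enzyme that activates granule serine proteases. In the brain, Cst7 is one of the genes of the disease-associated microglial state, which appears around amyloid plaques and in demyelination. In that state Trem2 signalling goes with higher Apoe, Axl, Itgax, Csf1 and lysosomal genes and lower homeostatic genes such as P2ry12. Vcam1 encodes an adhesion molecule that binds very late antigen integrins, and Cdkn1a encodes p21, a cyclin-dependent kinase inhibitor and textbook p53 target; both were already known from earlier results of these data to go with Cst7.

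The promoter sequences of Cst7 and of 5 genes discussed below are shown first, because they hold short motifs of factors known for microglial, p53 or NF-kB regulation. Each is a 60-base stretch from RefSeq (build GRCm38.p6), read 5′ to 3′ on the strand of the gene, with the motif in capitals. The Cst7 stretch lies at chr2:150570327-150570386 on the plus strand, upstream of a protein-coding gene at chr2:150570415-150578944, and its motif starts 63 bases before the RefSeq start. The Cdkn1a stretch lies at chr17:29090906-29090965 on the plus strand and its motif starts 48 bases before the upstream one of 2 starts. The B2m stretch is chr2:122147536-122147595 on the plus strand, that of Csf1 is chr3:107760589-107760648 on the minus strand, that of Nfkbia is chr12:55492642-55492701 on the minus strand, and that of Nfkb2 is chr19:46305680-46305739 on the plus strand.
Cst7: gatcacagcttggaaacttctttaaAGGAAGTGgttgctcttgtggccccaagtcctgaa
Cdkn1a: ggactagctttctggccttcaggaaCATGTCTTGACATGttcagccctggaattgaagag
B2m: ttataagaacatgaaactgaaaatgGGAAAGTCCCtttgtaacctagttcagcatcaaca
Csf1: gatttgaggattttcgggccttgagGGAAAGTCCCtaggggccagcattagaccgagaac
Nfkbia: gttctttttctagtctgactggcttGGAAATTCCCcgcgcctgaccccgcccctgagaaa
Nfkb2: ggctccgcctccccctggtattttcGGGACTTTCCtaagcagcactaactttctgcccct

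The capitals in Cst7 are AGGAAGTG, the core bound by PU.1 and other ETS factors. Searched on both strands, this core was in 1338 of 32851 promoters of 300 bases (4.07%). The capitals in Cdkn1a match CATG followed by 6 bases of any kind and CATG again, the core of a p53 element, which was in 234 promoters (0.712%). The capitals in the remaining 4 match GGGA and TTCC with any 2 bases between them, on either strand, a form of the NF-kB site, which was in 482 promoters (1.47%). Of the 198 genes called higher in Cst7-positive microglia below, 151 had a RefSeq promoter. Among these, 11 held the ETS core (7.28%, against 5.59% of the tested genes), 2 held the p53 core (1.32% against 0.325%; Cdkn1a and Prkar1b) and 4 held the NF-kB form (2.65% against 1.75%; B2m, Csf1, Nfkb2 and Nfkbia). These counts describe letters in a window and are not binding sites.

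Cst7-positive microglia were a small share of microglia in every library. They were 33 of 3214 microglia in Control (1.03%, 95% Clopper-Pearson interval 0.708 to 1.44), 143 of 4791 in hCD33M (2.98%, 2.52 to 3.51) and 124 of 5307 in hCD33m (2.34%, 1.95 to 2.78). Intervals and floors throughout cover counting error only. Barcodes with a single Cst7 UMI, just outside the threshold, were about equally frequent in the 3 libraries, at 4.64%, 4.63% and 4.35% of microglia in Control, hCD33M and hCD33m. Barcodes with 2 UMIs, just inside, numbered 21, 51 and 47. The libraries stood furthest apart among the barcodes richest in Cst7: 8 Control, 69 hCD33M and 43 hCD33m microglia had 4 or more UMIs, and 0, 25 and 6 had 8 or more. A single barcode held at most 6 Cst7 UMIs in Control, against 19 in hCD33M and 15 in hCD33m. With each barcode thinned to 2000 UMIs, which left out 181 Control microglia among others, at least 2 Cst7 UMIs remained in 0.0989% of Control, 1.17% of hCD33M and 0.636% of hCD33m microglia. Thinned or not, hCD33M had the highest share and Control the lowest. When only barcodes with 1000 genes or more and no more than 5% mitochondrial UMIs were kept, the shares were 0.992% in Control, 1.76% in hCD33M and 2.00% in hCD33m, so that hCD33m and not hCD33M came highest. With 1 library each, no difference between the shares was tested.

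**Figure D1:**
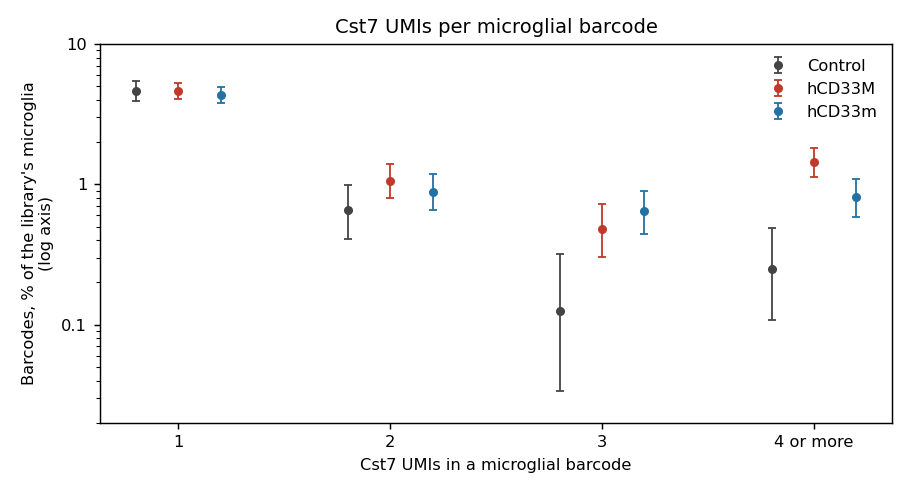
Share of each library's microglia (vertical, percent, log axis) with 1, 2, 3 or 4 and more Cst7 UMIs (horizontal), with 95% Clopper-Pearson intervals. The 3 libraries lie together at 1 UMI, near 4.63% in hCD33M, and apart at 4 or more, where Control is at 0.249% and hCD33M at 1.44%.

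No cell type known to lack Cst7 was separated here, so the background from free RNA was not measured. Among barcodes with 5 or more UMIs of the macrophage genes, 2 of 81 in Control (2.47%), 2 of 98 in hCD33M (2.04%) and 7 of 127 in hCD33m (5.51%) had at least 2 Cst7 UMIs, at median depths of 10474, 8576.5 and 9920 UMIs. The microglia had median depths of 5434.5, 5084 and 5136 UMIs.

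Depth and mitochondrial content went with Cst7. Cst7-positive microglia had median depths of 8347 UMIs in Control, 6188 in hCD33M and 7830.5 in hCD33m, above that of Cst7-negative microglia in each library. Their median mitochondrial share was 2.34%, 4.49% and 3.21%, against 1.84%, 2.03% and 1.73% in all microglia with 0 Cst7 UMIs. In hCD33M 45.5% of the Cst7-positive microglia had over 5% mitochondrial UMIs, against 3.19% of all microglia of that library, and the shares were 21.0% against 2.00% in hCD33m and 9.09% against 1.77% in Control. Each Cst7-positive barcode was therefore compared with 5 barcodes of its own library that had 0 Cst7 UMIs and were nearest in depth and mitochondrial share (165, 715 and 620 barcodes). The matched barcodes had median mitochondrial shares of 2.37% in Control, 3.58% in hCD33M and 3.01% in hCD33m, and median depths of 7977, 5177 and 6354.5 UMIs, so in hCD33M and hCD33m the members stayed above them in both. All 66 Cst7-negative hCD33M microglia with over 5% mitochondrial UMIs were used, and 57 of 67 in hCD33m. A stricter match kept 30, 75 and 77 members with 1 partner each within 0.2 SD on both measures. No Cst7-positive barcode was shared between libraries, although 5 to 10 kept barcodes were shared by each pair of libraries.

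Counts were summed over the members and over the matched barcodes of each library, and levels are given as counts scaled to a sum of 1000000 UMIs (CPM). The sums held 409217, 1133119 and 1215519 UMIs for members of the Control, hCD33M and hCD33m libraries. Of 9337 genes tested with edgeR and the library as a block, 198 were higher (2.12%) and 80 lower (0.857%) in Cst7-positive microglia at an adjusted p under 0.05, and the median log2 ratio over all genes was 0.00. An unadjusted p under 0.05 was reached by 1307 genes. The counts of each gene list below stand against these shares of 2.12% and 0.857%. The counts include Vcam1 and Cdkn1a but not Cst7 or the 6 genes of the microglial definition. They also include genes that passed the filter on low counts only with their member sums counted in. Itgax, Il1b, Tnf, Cd274, Mt2 and Cd300lf are among these, and their calls are a description. Scaled by library totals alone, the split was 148 higher and 124 lower, or 54.4% higher in place of 71.2%. The fit rested on the larger libraries: without hCD33M it called 41 higher and 1 lower, without hCD33m 69 and 8, and without Control 328 and 197. Of the 79 called genes named below, Vcam1 and Cdkn1a aside, 78 could be tested without hCD33M, where 23 were still called, 40 were still called without hCD33m and 76 without Control; every ratio that could be refitted kept its sign. With the stricter match, 60 of 7258 genes were higher and 17 lower (682 had an unadjusted p under 0.05), and 42 of the 71 named genes that could be tested were still called.

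Vcam1 and Cdkn1a are given as a description. Vcam1 (chr3:116109949-116129688, minus strand, mm10) stood at 44.0, 97.1 and 74.0 CPM in Cst7-positive microglia of the Control, hCD33M and hCD33m libraries and at 6.72, 9.91 and 6.49 CPM in matched barcodes. The 2 sets of values did not overlap, and the log2 ratio came to 2.71 for Control, 3.29 for hCD33M and 3.51 for hCD33m. Cdkn1a (chr17:29090976-29100727, plus strand) stood at 24.4, 95.3 and 61.7 CPM in members and at 10.9, 18.3 and 28.1 CPM in matched barcodes. Its Control value was below the hCD33m value of the matched barcodes, so the sets overlapped, and the Control log2 ratio of 1.17 had a counting interval of -0.08 to 2.32.

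Each gene was detected in a minority of members, Vcam1 in 21.2%, 38.5% and 39.5% and Cdkn1a in 15.2%, 30.1% and 30.6%. A UMI of Vcam1 or Cdkn1a was found in 30.3% of Control (15.6 to 48.7), 59.4% of hCD33M (50.9 to 67.6) and 51.6% of hCD33m members (42.5 to 60.7), against 12.7%, 9.93% and 13.4% of matched barcodes. Both together were found in 6.06%, 9.09% and 18.5% of members. Vcam1 was higher at more Cst7 UMIs in each library: it stood at 35.6, 62.3 and 65.2 CPM in members with 2 or 3 Cst7 UMIs and at 57.5, 135 and 89.2 CPM in members with 4 or more. The counting intervals of these 2 classes overlapped in hCD33m and in Control, where each class held 9 Vcam1 UMIs. Cdkn1a was at 39.6, 75.8 and 48.2 CPM at 2 or 3 Cst7 UMIs and at 0, 117 and 84.8 CPM at 4 or more. It was thus lower in the richer Control members and higher in those of hCD33M and hCD33m. Barcodes with 1 Cst7 UMI, which are no members, had Vcam1 at 5.26 CPM in Control, 21.2 in hCD33M and 25.8 in hCD33m. Among hCD33M members the Cdkn1a level was 91.6 CPM with a Vcam1 UMI and 97.7 CPM without one, whereas among hCD33m members it was 96.5 and 37.6 CPM. Whether the pairing of Vcam1 with Cdkn1a differs between these libraries was not tested.

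**Figure D2:**
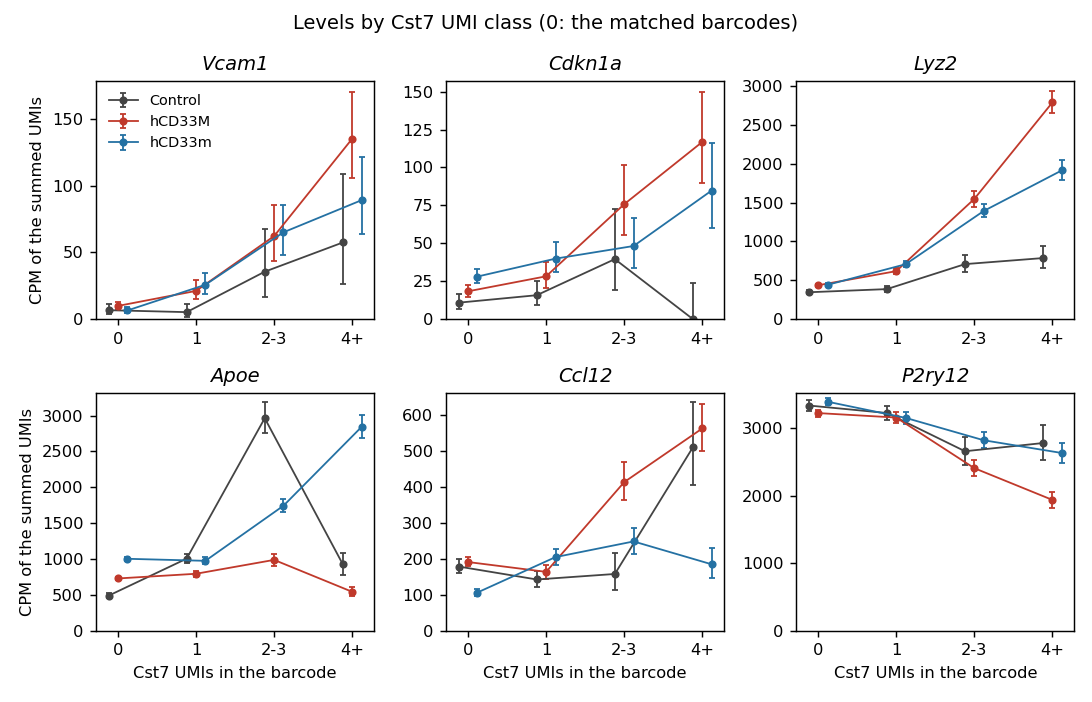
Level in CPM of the summed UMIs (vertical) of 6 genes in matched barcodes with 0 Cst7 UMIs and in microglia with 1, 2 to 3 and 4 or more (horizontal), by library, with exact Poisson intervals. Vcam1 goes from 9.91 to 135 CPM in hCD33M and P2ry12 from 3224 to 1938, while Apoe is at 2843 CPM in hCD33m and 543 in hCD33M at 4 or more Cst7 UMIs.

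The genes of the disease-associated state were the list with the most calls. Of 40 genes listed, 29 were tested, 21 were higher and none lower, and their median log2 ratio was 0.64 against 0.00 over all genes. The median was close to this in each library, at 0.61 in Control, 0.57 in hCD33M and 0.60 in hCD33m. With the stricter match 16 of 26 were called higher and the median was 0.49. The list was chosen with these data known, so its count is not independent evidence of its direction. Clec7a and Gpnmb, 2 further genes of this state, were not analysed here.

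Among the surface and signalling genes of this list, Axl stood out. Axl, a receptor tyrosine kinase that binds the phosphatidylserine bridge Gas6, was at 29.3, 49.4 and 40.3 CPM in Control, hCD33M and hCD33m members and at 9.31, 14.3 and 9.01 CPM in matched barcodes. All 3 member values lay above all 3 matched values (log2 ratio 1.95 ± 0.22 SE, edgeR adjusted p = 5.32e-06). Cd63, a tetraspanin of late endosomes and lysosomes, was at 892, 1140 and 1002 CPM in members against 508, 524 and 549 CPM. It too was apart in every library (0.99 ± 0.07, adjusted p = 3.59e-08), and was found in at least 96.8% of the members and 81.8% to 93.3% of matched barcodes of a library. Cd52, a small glycosylphosphatidylinositol-anchored glycoprotein of leukocytes, was at 569, 542 and 457 CPM against 279, 302 and 272 CPM. The 2 sets did not overlap (0.91 ± 0.08, adjusted p = 1.2e-07).

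The other called genes of the list covered ligands, receptors and secreted proteins. Itgax, the integrin chain CD11c (log2 ratio 1.68), Csf1, the ligand of the survival receptor of microglia (1.34), Lgals3bp, a galectin-binding secreted protein (0.96), Cd83, a surface protein of activated antigen-presenting cells (0.99), Timp2, a metalloproteinase inhibitor (0.59), and the tetraspanin Cd9 (0.48) were all higher. Fth1, the heavy chain of ferritin, was also higher (0.41). Itgax, at 1.03, 4.43 and 10.3 CPM in matched barcodes, passed the filter on low counts only with its member sums counted in. Its call is therefore a description. Lgals3, galectin-3, had the highest ratio of the list (2.22, adjusted p = 0.000482), but 36.0% of its hCD33M and 45.7% of its hCD33m UMIs came from 1 barcode each. Trem2, the receptor on which this state depends in plaque models, was at 3189, 4001 and 3451 CPM in members and 3089, 2802 and 2838 CPM in matched barcodes. Its difference was small and lowest in Control (0.33 ± 0.08, adjusted p = 0.0176), and was not called with the stricter match (0.19, adjusted p = 0.174). Its adaptor Tyrobp differed by 0.09 and was not called (adjusted p = 0.613).

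Apoe and Lyz2, which are also known from this state, varied widely between the libraries. Apoe, the main lipid carrier of the brain, was at 2185 CPM in Control, 777 CPM in hCD33M and 2149 CPM in hCD33m members, and at 489, 730 and 1004 CPM in matched barcodes. The hCD33M members therefore lay within the range of the matched barcodes, and 55.7% of the Control UMIs came from 1 barcode (1.14 ± 0.57, adjusted p = 0.586). In hCD33m Apoe was at 1744 CPM in members with 2 or 3 Cst7 UMIs and 2843 CPM in those with 4 or more, while it was at 988 and 543 CPM in hCD33M and at 2963 and 927 CPM in Control. Lyz2, lysozyme, was at 738, 2138 and 1585 CPM in members and 346, 436 and 441 CPM in matched barcodes. Members were higher in each library, but by 1.09, 2.29 and 1.84 on the log2 scale, and the fit did not call it (adjusted p = 0.226). With the stricter match both were called (Apoe 1.46, adjusted p = 1.66e-05; Lyz2 1.5, adjusted p = 6.08e-13). Lpl, lipoprotein lipase, was at 48.9, 15 and 57.6 CPM against 15.5, 26.6 and 31.0 CPM and was not called (adjusted p = 0.557).

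**Figure D3:**
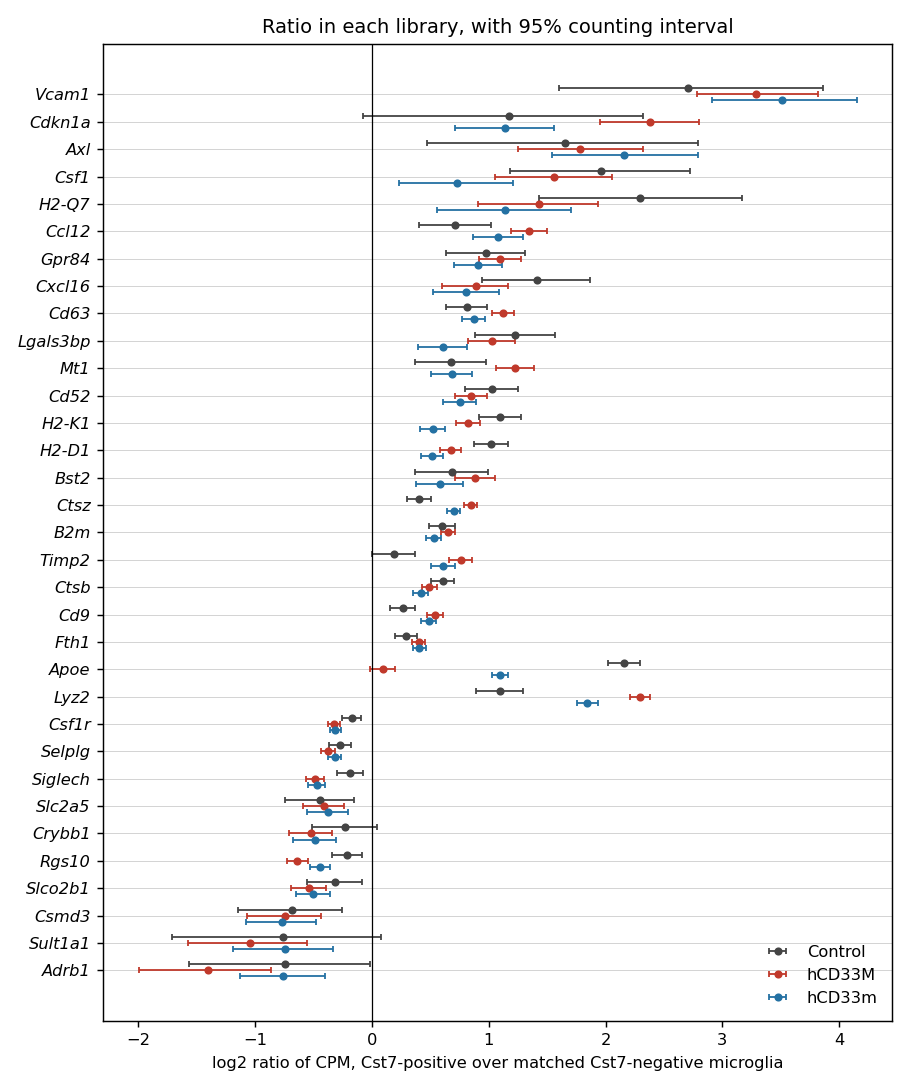
Log2 ratio of CPM, Cst7-positive over matched Cst7-negative microglia (horizontal), for 33 genes (vertical) in each library, with exact 95% counting intervals. Axl, Cd63, Cd52, H2-K1 and Ctsz are above 0 in each library, Siglech and Selplg are below 0 in each, and Apoe is at 2.16 in Control and 0.09 in hCD33M.

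A minority of the homeostatic genes were lower, by small amounts. Of 30 tested, 7 were lower and none higher, and the median log2 ratio was -0.22. Under the stricter match 4 of 29 were lower and the median was -0.17. P2ry12, which is part of the microglial definition and is given without a test, was at 2705, 2184 and 2752 CPM in members and 3336, 3224 and 3392 CPM in matched barcodes. Siglech, a receptor of the Siglec family (to which CD33 belongs) found in brain mainly on microglia, was at 1808, 1498 and 1518 CPM against 2060, 2100 and 2105 CPM. Every member value was below every matched value (-0.34 ± 0.07, adjusted p = 0.00799). Selplg, the P-selectin ligand, was at 2544, 2424 and 2708 CPM against 3078, 3155 and 3380 CPM, again without overlap (-0.28 ± 0.06, adjusted p = 0.0173). The others called were Nav3 (-0.55), Crybb1 (-0.39), the fructose transporter Slc2a5 (-0.36), the small GTPase Rhob (-0.33) and Sall1, the transcription factor that sets microglial identity (-0.30). Of these, Slc2a5 was called with the stricter match (-0.53, adjusted p = 0.00144) and Nav3, Crybb1, Rhob and Sall1 were not (adjusted p from 0.0578 to 0.455). Rhob is also counted in the early response list below. The study places it among the genes raised in its cluster of immediate early genes. Csf1r, the growth factor receptor on which microglia depend (-0.23, adjusted p = 0.069), the purine receptor P2ry13 (-0.24, adjusted p = 0.069), Sparc (-0.14, adjusted p = 0.357) and mouse Cd33 (-0.24, adjusted p = 0.0944) were not called. With the stricter match Csf1r was called (-0.25, adjusted p = 0.015) and Cd33 was not (-0.17, adjusted p = 0.632). Cx3cr1, the fractalkine receptor, was at 5325 CPM in Control, 2614 in hCD33M and 2587 in hCD33m members and at 5981, 3359 and 3158 CPM in matched barcodes, so that the libraries differed from each other more than members from matched barcodes (-0.23, adjusted p = 0.069).

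The proteases that cystatins inhibit, and the cystatins, were examined next because Cst7 is one of them. Of 13 tested genes of the cystatin and cathepsin list, 7 were higher and none lower, with a median log2 ratio of 0.27. Ctsz, a carboxypeptidase, was at 2522, 3464 and 3009 CPM in members and 1907, 1929 and 1854 CPM in matched barcodes (0.70 ± 0.08, adjusted p = 4.21e-06). Ctsb, an abundant lysosomal endopeptidase, was at 2612, 2342 and 2271 CPM against 1717, 1668 and 1702 CPM (0.55 ± 0.07, adjusted p = 2.15e-05). The 2 genes had no overlap between members and matched barcodes. Ctsl (0.38), Ctss (0.32), Ctsa (0.32) and Ctsh (0.27) were higher by less, and Ctss, Ctsa and Ctsh were not called with the stricter match (adjusted p from 0.214 to 0.424). Cstb, an intracellular cystatin, was higher by 0.60 ± 0.12 (adjusted p = 0.00424). Cst3, the secreted cystatin C, which was at 45457 to 55589 CPM in members, differed by -0.06 (adjusted p = 0.793), and the aspartic protease Ctsd by 0.09 (adjusted p = 0.649). Ctsc, cathepsin C, was at 381, 295 and 336 CPM in members and 360, 362 and 389 CPM in matched barcodes. It was not called (-0.12, adjusted p = 0.576). Of 26 lysosomal genes tested, 9 were higher and none lower (median 0.24); beside Cd63, these included Hexa, a subunit of beta-hexosaminidase (0.51) and the acid glucosidase Gaa (0.71). With the stricter match 2 of the 26 were called and their median was 0.12, with Hexa not called (adjusted p = 0.129) and Gaa called (adjusted p = 0.0375).

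Some MHC class I genes, which present peptides to CD8 T cells, were higher under both matches. Of 17 tested, 6 were higher and none lower, with a median of 0.33, and with the stricter match 4 of 17 were called and the median was 0.31. H2-K1, a classical class I heavy chain, was at 909, 965 and 819 CPM in members and 424, 547 and 572 CPM in matched barcodes (0.84 ± 0.09, adjusted p = 2.5e-06). H2-D1, the other classical chain, was at 1295, 1202 and 1081 CPM against 639, 754 and 757 CPM (0.77 ± 0.08, adjusted p = 2.94e-06). B2m, their common light chain, was at 2155, 2608 and 2296 CPM against 1420, 1660 and 1593 CPM (0.64 ± 0.07, adjusted p = 2.5e-06). For these 3 genes the members of every library exceeded all matched values. The nonclassical chains H2-Q7 (1.54) and H2-T23 (0.44) and the loading factor Tapbp (0.38) were called too, though H2-T23 and Tapbp not with the stricter match (adjusted p = 0.167 and 0.424). H2 genes are near-identical copies in places, so counts may be split between them. Of 9 class II genes 1 was called, H2-Oa (0.81), a regulator of peptide loading that the stricter match did not call (0.73, adjusted p = 0.097), and of 15 interferon-stimulated genes 1, Bst2 (0.77), tetherin.

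Inflammatory genes rose in part. Of 24 genes of the NF-kB and inflammatory list, 8 were higher and none lower, with a median of 0.22. With the stricter match 3 of 18 were higher, and Il1b, Tnf, Nfkb2 and Cd274 were too low to be tested. The 8 genes called higher before the stricter match included Tlr2 (0.66), a receptor for bacterial lipopeptides, Tnfaip2 (1.02), and Nfkbia, the NF-kB inhibitor (0.50). Nfkb2 (1.04), at 16.5 to 19.5 CPM in members, was another. Nfkbia was not called with the stricter match (0.40, adjusted p = 0.197). Cd274, the ligand PD-L1, was higher by 1.18. Tnf (1.38, adjusted p = 0.0272) was at 24.4 and 27.4 CPM in Control and hCD33M members but at 4.94 CPM in hCD33m, where matched barcodes had 5.03 CPM. Cd274 and Tnf passed the filter on low counts only with member sums counted in, so their calls are a description. Il1b had the highest ratio of any gene tested, at 17.1, 66.2 and 37.0 CPM in members and 1.55, 2.53 and 4.82 CPM in matched barcodes (3.78 ± 0.30, adjusted p = 6.71e-08). This gene passed the filter on low counts through its member sums alone. Its rank, p-value and call are therefore a description. It was carried by few cells: a UMI was found in 9.09%, 14% and 13.7% of members, and 1 barcode held 57.1%, 66.7% and 31.1% of the members' UMIs. Icam1, a ligand of leukocyte integrins, was higher by 0.51, but not called with the stricter match (adjusted p = 0.214).

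Of 9 chemokine genes tested, 2 were higher and none lower, with a median of 1.01. The median differed between the libraries, at 1.41 in Control, 0.89 in hCD33M and 0.01 in hCD33m. Cxcl16, a membrane-bound chemokine, was at 154, 134 and 125 CPM in members and 57.9, 72.6 and 71.4 CPM in matched barcodes (1.01 ± 0.12, adjusted p = 1.32e-05). Ccl12, a monocyte attractant, was at 293, 485 and 225 CPM against 179, 192 and 107 CPM (1.14 ± 0.10, adjusted p = 1.32e-07), with 36.7% of the Control UMIs in 1 barcode. Its sets did not overlap, but it was not called with the stricter match (0.59, adjusted p = 0.793). Ccl3 and Ccl4, the macrophage inflammatory proteins, were not called (adjusted p = 0.571 and 0.665), but both were with the stricter match (Ccl3 2.21, adjusted p = 2.19e-11; Ccl4 2.96, adjusted p = 6.21e-05), where 3 of 7 chemokines were higher. Ccl3 was at 533, 313 and 65.0 CPM in all members and 50.7, 52.1 and 70.2 CPM in their matched barcodes, so hCD33m members were not higher. A single barcode held 82.1%, 53.8% and 46.8% of the members' Ccl3 UMIs. Ccl4 was at 1029, 289 and 65.8 CPM in members, and 1 barcode held 84.1%, 50.8% and 62.5% of these UMIs.

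Some complement and metallothionein genes were also higher. Of 7 complement genes 4 were higher and none lower (median 0.30): C3ar1, the receptor of C3a (0.59), and the 3 chains of C1q, C1qa (0.36), C1qb (0.34) and C1qc (0.30). C1qa was at 10821, 14387 and 12893 CPM against 10104, 10016 and 10432 CPM, and stayed called with the stricter match (0.23, adjusted p = 0.0157), while C1qb and C1qc did not (adjusted p = 0.0598 and 0.15). Of 11 metallothionein and iron genes 4 were higher and none lower (median 0.40). With the stricter match 2 of 9 of these and 2 of 7 complement genes were higher. The zinc-binding Mt1 was at 301, 422 and 302 CPM in members and 188, 181 and 188 CPM in matched barcodes (0.94 ± 0.10, adjusted p = 4.2e-06). Mt2 was at 19.5, 44.1 and 11.5 CPM against 4.66, 4.22 and 4.82 CPM (2.50 ± 0.35, adjusted p = 0.000176), and both genes were without overlap. Mt2 passed the filter on low counts through its member sums alone, so its p-value and call are a description.

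**Figure D4:**
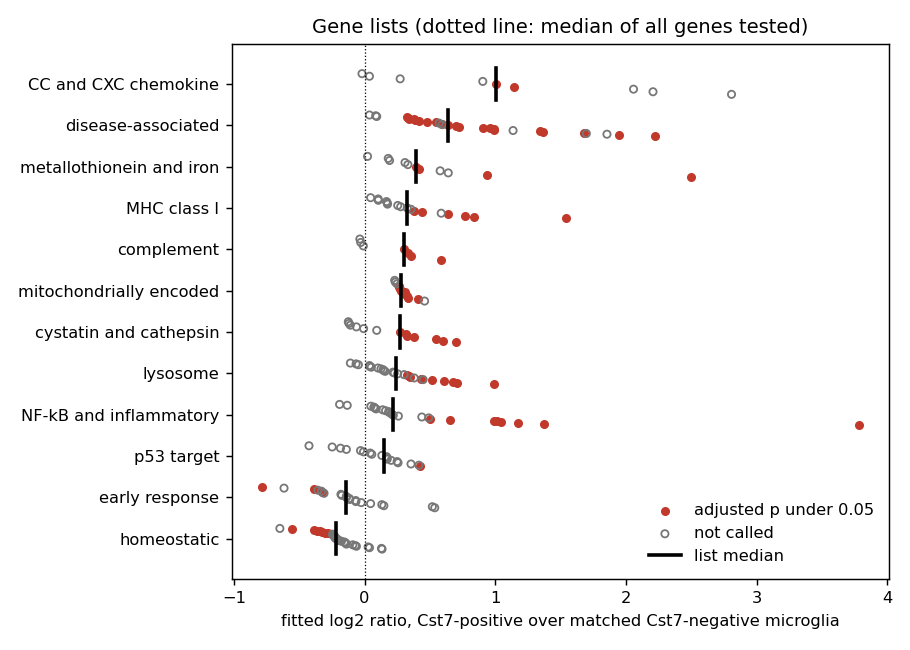
Fitted log2 ratio of each tested gene (horizontal) in 12 gene lists (vertical), filled where the edgeR adjusted p was under 0.05, with the median of each list as a bar. The disease-associated list has 21 filled points right of 0 and a median of 0.64, and the homeostatic list 7 filled points left of 0 and a median of -0.22.

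Cdkn1a did not stand among other p53 targets that were higher. Of 18 tested genes of the p53 list, which leaves Cdkn1a out, 1 was higher and none lower, and the median was 0.15. That gene was Rps27l (0.42, adjusted p = 0.0199), which was not called with the stricter match (0.23, adjusted p = 0.7). Mdm2, the p53 ubiquitin ligase, was at 58.6, 56.5 and 54.3 CPM in members and 51.7, 44.5 and 58.0 CPM in matched barcodes, which overlapped (adjusted p = 0.674), and Ccng1 differed by 0.26 (adjusted p = 0.717). Of 13 genes of secretion and arrest in senescence, 3 were higher: Il1b, Tnf and Glb1, the lysosomal beta-galactosidase (0.61, adjusted p = 0.00721; 0.71, adjusted p = 0.0772 with the stricter match). The calls of Il1b and Tnf are a description, as given above. Of 10 cell cycle genes 1 was higher.

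Several genes outside these groups had clear ratios. Gpr84, a receptor for medium-chain fatty acids, was at 261, 337 and 238 CPM in members and 133, 157 and 127 CPM in matched barcodes (1.05 ± 0.09, adjusted p = 1.2e-07). Trpm2, a calcium channel opened by oxidative stress, was at 78.2, 160 and 129 CPM against 55.3, 70.9 and 59.3 CPM (1.09 ± 0.12, adjusted p = 5.32e-06). Both were without overlap. Id2, an inhibitor of helix-loop-helix factors, was higher by 1.19. Of 21 genes of lipid handling 4 were higher and none lower. They included Nceh1 (0.88) and Soat1 (0.50), which hydrolyse and form cholesterol esters, and Npc2 (0.42), which moves cholesterol out of lysosomes. Npc2 was also called with the stricter match (0.31, adjusted p = 0.024) and Nceh1 and Soat1 were not (adjusted p = 0.207 and 0.197). Chst2, a sulfotransferase, Hcar2, the receptor of niacin and beta-hydroxybutyrate, and Ccr1, a chemokine receptor, were noted after their values were seen, with ratios of 2.66, 2.63 and 1.62. Chst2 and Hcar2 passed the filter on low counts only with their member sums counted in, so their ratios are a description. Hcar2 was at 22, 75 and 30.4 CPM in members and 7.76, 11.6 and 3.98 CPM in matched barcodes.

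Among the genes at 50 CPM or more that fell were Adrb1 and Csmd3. Adrb1, a noradrenaline receptor, was at 41.5, 26.5 and 60.1 CPM in members and 69.8, 70.0 and 102 CPM in matched barcodes (-0.91 ± 0.15, adjusted p = 0.000667). Csmd3 was at 120, 84.7 and 89.7 CPM against 193, 142 and 153 CPM (-0.70 ± 0.11, adjusted p = 0.000327). Both sets lay apart in every library. Sult1a1, a sulfotransferase (-0.82), Tjp1, a tight junction scaffold (-0.64), and Tuba1a, an alpha-tubulin (-0.62), fell as well. Adrb1 (-0.83, adjusted p = 0.0223) and Sult1a1 (-0.95, adjusted p = 0.0146) were also called with the stricter match, and Csmd3 (-0.50, adjusted p = 0.0986), Tjp1 (adjusted p = 0.352) and Tuba1a (adjusted p = 0.242) were not. Among abundant genes, Lair1, an inhibitory collagen receptor, was at 821, 591 and 558 CPM against 899, 968 and 809 CPM. The Control members lay within the matched range (-0.43 ± 0.08, adjusted p = 0.00515). Slco2b1, an organic anion transporter (-0.42), Rgs10, a brake on G protein signalling (-0.39), Hpgd, which inactivates prostaglandins (-0.38), and the transcription factors Mef2a (-0.29) and Pou2f2 (-0.29) were also lower, Mef2a and Pou2f2 not with the stricter match (adjusted p = 0.353 and 0.362).

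Since the study compares forms of CD33, genes of Siglecs, with or without an inhibitory motif, and of receptors with such motifs were counted as well. Of 16 tested, 2 were higher and 3 lower. The higher ones were Cd300lf (2.12, at 7.33 to 12.4 CPM in members) and Cd300a (0.37; 0.39, adjusted p = 0.134 with the stricter match), which bind lipids of dying cells. Cd300lf, at 1.55 to 2.93 CPM in matched barcodes, passed the filter on low counts through its member sums alone. Its call is therefore a description. Those lower were Lair1, Siglech and Cmtm6 (-0.41). Cmtm6 is on this list but is a stabiliser of PD-L1 and not such a receptor. Of 21 early response genes 3 were lower and none higher (median -0.14): Fosb (-0.79, adjusted p = 0.00488), Zfp36 (-0.39) and Rhob. None of 20 was called with the stricter match, with Fosb at -0.47 (adjusted p = 0.439) and Zfp36 at -0.37 (adjusted p = 0.243). Fos itself was at 156, 38.8 and 137 CPM in members against 106, 65.4 and 210 CPM and was not called (adjusted p = 0.602).

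Most mitochondrially encoded genes were higher, and the match left a difference in mitochondrial share. Of 13 tested, 9 were higher and none lower, with a median of 0.28, and the mitochondrial share of the summed UMIs was 2.47%, 4.17% and 3.25% in members and 2.37%, 3.23% and 2.71% in matched barcodes. The stricter match pairs barcodes on this share, so that its median of 0.00, with none of the 13 called, follows from how it was built. The part of cell damage or of dissociation in the other results was not tested.

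The marker genes of other cells were summed in the same way. Of the 8 macrophage markers, 4 of which the definition limits, the summed level was 12.2 to 57.4 CPM in members and 10.3 to 18.2 CPM in matched barcodes, with Cd163 and Cd209f at 0 in members. In members nearly all of it was Mrc1, the mannose receptor, at 12.2, 53.8 and 42 CPM. In matched barcodes Mrc1 was at 7.24, 7.17 and 13.2 CPM, of sums of 10.9, 10.3 and 18.2 CPM. The 6 monocyte markers summed to 7.06 to 19.5 CPM in members and 9.31 to 19.6 CPM in matched barcodes, with Ly6c2 and Chil3 at 0. The lymphocyte markers (3 of 9 in the files) summed to 12.4 to 51.3 against 12.9 to 20.7 CPM, with Cd3d at 0, and the neutrophil, mural and choroid plexus markers were at 0 in members. The astrocyte markers summed to 203 to 272 CPM in members and 212 to 233 CPM in matched barcodes, with Aldoc at 0, the oligodendrocyte markers to 31.8 to 44 against 28.5 to 36.7 CPM, with Mobp at 0, and the endothelial markers to 7.33 to 27.4 against 30.4 to 38.3 CPM. The neuronal markers were at most 3.29 CPM in members. The microglial markers summed to 21515 to 23283 CPM in members and 23725 to 25730 CPM in matched barcodes. The part of transcripts of macrophages and other cells in the results was not tested. No doublet caller was run; leaving out the 5% of microglia with most UMIs gave 220 higher and 154 lower genes.

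Within the members, more Cst7 went with few other genes that could be called. Members with 4 or more Cst7 UMIs were set against those with 2 or 3 in the same library, a comparison chosen after the data were seen. Their median mitochondrial share was 2.27% against 2.44% in Control, 5.68% against 3.39% in hCD33M and 3.86% against 3.06% in hCD33m. Their median depth was 18092 against 6668 UMIs in Control, 6405 against 6132 in hCD33M and 8416 against 7823 in hCD33m. The part of these differences in the calls was not tested. Of 6540 genes tested 4 were called (0.0612%), all higher, and 368 had an unadjusted p under 0.05. Lyz2 was at 786, 2789 and 1914 CPM in members with 4 or more and at 708, 1547 and 1392 CPM in those with 2 or 3 (0.58 ± 0.10, adjusted p = 0.00207). H2-Q7 was at 147, 63.1 and 53.5 CPM against 7.91, 33.7 and 23.5 CPM (1.53 ± 0.31, adjusted p = 0.0325). In both the richer members were higher within each library. In Control, H2-Q7 was found in 4 of the 8 richer members, and 1 member held 11 of its UMIs. The others were Il1b (1.94) and Ccl2 (3.17), where 1 hCD33M member held 50 UMIs of Il1b and 1 held 115 of Ccl2. Against their own matched barcodes, members with 2 or 3 Cst7 UMIs gave 72 higher and 13 lower genes, and those with 4 or more 131 and 67.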

How the data were processed

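The 3 libraries (10x Chromium 3' chemistry), 1 per genotype, were deposited as tables of raw UMI counts per gene and barcode. Per the study's methods, the authors aligned reads to mm10 with STAR in Cell Ranger and kept barcodes with over 200 genes and genes found in at least 3 cells; a release of the gene annotation was not found in the sources read. The counts were used as deposited: 3482, 5100 and 5707 barcodes with 21529542, 28387611 and 32572995 UMIs.

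From these, members were chosen and matched within each library as described above, counts were summed, and the 6 sums were tested with edgeR 4.0.16 in R 4.3.3 (quasi-likelihood test, TMM factors, filterByExpr, library as a block, Benjamini-Hochberg over 9337 genes, threshold 0.05). P-values thus measure the spread of the within-library difference over 3 libraries of differing genotype. How many mice a library pooled was not found there either. The library is the block because members and matched barcodes come from the same pool. DESeq2 1.42.0 and other settings were alternatives. Checked on simulated counts for 9226 genes, the test recovered 50 of 50 genes raised by 2 on the log2 scale and 43 of 50 raised by 1. Shares have Clopper-Pearson and levels exact Poisson intervals at 95%.

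The members, gene lists, markers and motifs were chosen with earlier results of these data known. Named genes were the 15 highest and 15 lowest called genes with the same sign in each library at 50 CPM, 10 and 10 at 500 CPM, and list members, a part of which is printed. Gene positions are from GENCODE vM21. Some items are not reported here.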

Additional observations from a re-analysis of the deposited data

Results flagged for a closer look

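For Ccl4, Fos and Ifi27l2a, among the genes examined at a mean of 50 CPM or more, libraries moved in opposite directions by the log2 ratio of Cst7-positive over matched Cst7-negative microglia. With 1 library per genotype these differences were not tested. Ccl4, a chemokine, was higher in members of the Control library by 4.79 (95% counting interval 4.42 to 5.17) and of hCD33M by 2.33 (2.09 to 2.57), whereas in hCD33m the ratio was -0.57 (-0.93 to -0.22), with 84.1% of the Control members' UMIs in 1 barcode. Fos, an early response transcription factor, had a ratio of 0.56 in Control (0.13 to 0.97) but of -0.75 in hCD33M (-1.24 to -0.29) and, for hCD33m, of -0.61 (-0.86 to -0.38). Ifi27l2a, an interferon-stimulated gene, had a ratio of 1.35 in Control (0.76 to 1.93) and -1.17 in hCD33m (-1.84 to -0.56). Other genes also had library intervals on both sides of 0: the class II gene H2-Ab1, noted after its values were seen, had a ratio of 3.28 in Control, where 87.2% of the members' UMIs were in 1 barcode, and of -1.14 in hCD33M (-1.73 to -0.60).

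Cst7 was also found outside the microglial definition. At least 2 Cst7 UMIs were held by 8.28% of the 157 hCD33M barcodes below the P2ry12 and Tmem119 minimum (4.48 to 13.7) and by 5.06% of the 178 such barcodes in hCD33m (2.34 to 9.38), at median depths of 3502 and 3290 UMIs, against 3.42% of 117 in Control. Among the 127 hCD33m barcodes with 5 or more macrophage UMIs the share was 5.51% (2.24 to 11).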

How the results depend on the processing

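The number of called genes depended on the setting more than their direction did. Called higher and lower were 103 and 54 genes with 1 matched barcode per member, 449 and 279 without matching, 118 and 36 for members with at least 1 Cst7 UMI, 74 and 45 after thinning to 2000 UMIs, 90 and 47 without barcodes holding markers of other cells, 51 and 17 with DESeq2, and 92 and 19 without the replicate block, that is, without pairing members and matched barcodes by library. Lower genes numbered 124 with totals only, 154 without the 5% of microglia with most UMIs, and 185 without a filter on low counts. Chosen after seeing the data were the match within 0.2 SD (60 and 17) and the classes of 4 or more (131 and 67) and of 2 or 3 Cst7 UMIs (72 and 13). Leaving out 1 library gave 41 (without hCD33M) to 328 (without Control) higher and 1 to 197 lower genes; with 2 libraries the residual spread rests on a single degree of freedom before sharing across genes.

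The median log2 ratio of the disease-associated list was 0.59 with totals only, 0.51 with 1 matched barcode, 0.90 unmatched, 0.54 at 3 or more Cst7 UMIs, 0.32 at 1 or more, 0.66 thinned, 0.70 without the P2ry12 and Tmem119 minimum, 0.70 with the stricter cell filter, 0.78 without the deepest barcodes, 0.73 without other markers, 0.56 at 50 CPM or more and 0.49 within 0.2 SD, and 0.60 to 0.69 leaving out a library. The metallothionein and iron median was 0.35, 0.28, 0.49, 0.44, 0.16, 0.45, 0.43, 0.35 and 0.52 in the same order from totals only to the deepest barcodes left out, then 0.31 at 50 CPM and 0.28 within 0.2 SD, and 0.38 to 0.44 leaving out a library. For members with at least 1 Cst7 UMI the median was -0.10 for homeostatic, -0.039 for p53, 0.10 for cystatin and cathepsin, 0.14 for MHC class I, 0.079 for lysosome, -0.082 for early response and 0.11 for mitochondrially encoded genes. The p53 median was 0.060 with 1 matched barcode, -0.12 thinned, -0.029 without other markers and 0.060 within 0.2 SD, so its sign depends on the setting. The NF-kB median was 0.33 at 3 or more Cst7 UMIs, 0.45 thinned, and from 0.17 without hCD33M to 0.40 without Control. The lysosome median was 0.35 without the deepest barcodes and 0.12 within 0.2 SD. The early response median was -0.18 with totals only, -0.21 thinned, -0.24 without the deepest barcodes, -0.20 without other markers, and from -0.16 without hCD33M to -0.077 without hCD33m, and the homeostatic median -0.29 without other markers. The mitochondrially encoded median was 0.76 unmatched, 0.12 with the stricter filter and 0.0037 within 0.2 SD.

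The share of microglia with Cst7 in Control, hCD33M and hCD33m was 0.0989%, 1.17% and 0.636% thinned to 2000 UMIs, 0.564%, 2.38% and 1.36% thinned to 4000 UMIs, 5.66%, 7.62% and 6.69% at 1 UMI or more and 0.373%, 1.92% and 1.45% at 3 or more, and 1.76% in hCD33M with the stricter filter. Thinned to 2000 UMIs, Vcam1 or Cdkn1a was found in 6.06%, 32.4% and 23.6% of members and 3.03%, 4.56% and 5.7% of matched barcodes; at least 2 UMIs were found in 34.3% of hCD33M and 29% of hCD33m members and in 2.42%, 3.08% and 4.19% of matched barcodes.

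Of the named genes, Ctsc aside, the log2 ratio changed sign only for genes that were not called: Cst3 (-0.14 without Control to 0.0057 without hCD33m), Ctsd (-0.034 without Control), Mdm2 (-0.10 at 1 Cst7 UMI or more, -0.081 thinned), Ccng1 (-0.24 without hCD33m to 0.47 without hCD33M), Lpl (-0.10 without other markers) and Ifi27l2a (-0.12 without the P2ry12 and Tmem119 minimum, -0.038 without Control). The cause of these changes was not tested. Depth limits the Control library most, where the 33 members hold 409217 UMIs.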
